A study of Homo sapiens with 19 samples.

Results

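The transcripts of 10 genes that set the pace of the G1 phase were followed across 19 RNA-seq samples of human embryonic stem cells (hESCs). They were the cyclin-dependent kinase (CDK) inhibitors CDKN2A, CDKN2B, CDKN2C, CDKN1A and CDKN1B, and the G1 cyclins CCND1, CCND2, CCND3, CCNE1 and CCNE2. They were taken by gene symbol, and all 10 were found once among the 33382 genes of every sample. The cells were H1, an established hESC line, cultured in a defined medium. For each of 6 lines there were 2 samples: WT H1, the single knockouts SUZ12-/- H1, EED-/- H1, EZH2-/- H1 and EZH1-/- H1, and the double knockout EZH2-/-/EZH1-/- H1. In the knockouts a functional domain of a core component of polycomb repressive complex 2 (PRC2), the enzyme that tri-methylates histone H3 at lysine 27 (H3K27me3), was replaced by a drug resistance cassette with CRISPR/Cas9, and clones were picked. By the western blots of the study, SUZ12-/- H1, EED-/- H1 and the double knockout cells lost H3K27me3 and are called PRC2-null here. EZH2-/- H1, EZH1-/- H1 and WT H1 cells are called retaining lines. In the same blots EZH2-/- H1 and EZH1-/- H1 cells kept the mark at lower levels than WT H1 cells. H1-EED-/-/EED-OE cells lack endogenous EED and carry a lentiviral EED under doxycycline (DOX). They were sampled once with DOX and once per time point after withdrawal, on days 8, 12, 16, 20, 24 and 28. The title of the DOX sample also carries day 28, so it is not known to be a starting point. Nothing in the labels says whether the 2 samples of a line were separate cultures, so p-values measure the spread between these samples, which may be technical. The spread from line to line does not enter the p-values, also where groups of lines are compared.

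As background, D-type cyclins bind CDK4 and CDK6, and E-type cyclins bind CDK2. These kinases phosphorylate the retinoblastoma protein, which frees E2F factors to switch on the genes of DNA replication. Inhibitors of the INK4 family (CDKN2A, CDKN2B and CDKN2C) block CDK4 and CDK6, and those of the CIP/KIP family (CDKN1A and CDKN1B) bind a wider range of cyclin-CDK complexes. hESCs are known for a short G1 phase, and CDKN2A and CDKN2B form a locus that Polycomb proteins silence in many cell types. CDKN2A encodes p16INK4a and, from another start and reading frame, p14ARF. A value per gene does not separate them.

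On GRCh38 (GENCODE), CDKN2A lies at chr9:21967752-21995301 and CDKN2B at chr9:22002903-22009305, both on the minus strand and 7601 bases apart. The antisense RNA CDKN2B-AS1 (chr9:21994139-22128103, plus strand) spans CDKN2B entirely without sharing exonic bases with it, and its exons share 593 of the 3885 exonic bases of CDKN2A. The library kit did not mark strand, so reads of antisense partners cannot be told apart. RefSeq promoter windows (GRCh38.p14) matched 7 of the 10 genes with 12 start sites. The 250 bases before 5 of these starts are shown because CDKN2A, CDKN2B and CDKN1A carry the largest differences between the lines and CCNE1 goes the other way. They are chr9:21974858-21975107 and chr9:21995325-21995574 for CDKN2A, chr9:22009306-22009555 for CDKN2B (these on the minus strand), chr6:36678464-36678713 for CDKN1A and chr19:29811741-29811990 for CCNE1 (plus strand). Capitals mark the GC box, GGGCGG on either strand, the core of the element bound by Sp1.
CDKN2A, INK4a start: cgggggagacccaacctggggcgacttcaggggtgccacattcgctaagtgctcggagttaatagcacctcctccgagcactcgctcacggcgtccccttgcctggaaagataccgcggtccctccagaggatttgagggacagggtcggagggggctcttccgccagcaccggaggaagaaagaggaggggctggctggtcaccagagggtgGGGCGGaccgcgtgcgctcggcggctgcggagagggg
CDKN2A, upstream start: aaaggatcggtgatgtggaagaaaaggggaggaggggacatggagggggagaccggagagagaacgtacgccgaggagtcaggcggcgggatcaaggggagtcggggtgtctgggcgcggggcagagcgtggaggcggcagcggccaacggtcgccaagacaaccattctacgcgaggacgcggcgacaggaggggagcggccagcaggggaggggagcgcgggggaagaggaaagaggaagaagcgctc
CDKN2B: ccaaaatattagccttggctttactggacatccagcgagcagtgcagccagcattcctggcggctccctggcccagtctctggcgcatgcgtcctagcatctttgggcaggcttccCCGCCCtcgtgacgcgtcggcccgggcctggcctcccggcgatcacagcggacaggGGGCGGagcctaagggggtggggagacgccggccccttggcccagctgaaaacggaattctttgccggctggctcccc
CDKN1A: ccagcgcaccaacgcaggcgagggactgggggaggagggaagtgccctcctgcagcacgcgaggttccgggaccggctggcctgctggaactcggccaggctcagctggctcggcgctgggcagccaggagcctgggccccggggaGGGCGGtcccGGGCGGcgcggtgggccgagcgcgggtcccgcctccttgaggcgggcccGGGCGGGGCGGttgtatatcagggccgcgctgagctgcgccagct
CCNE1: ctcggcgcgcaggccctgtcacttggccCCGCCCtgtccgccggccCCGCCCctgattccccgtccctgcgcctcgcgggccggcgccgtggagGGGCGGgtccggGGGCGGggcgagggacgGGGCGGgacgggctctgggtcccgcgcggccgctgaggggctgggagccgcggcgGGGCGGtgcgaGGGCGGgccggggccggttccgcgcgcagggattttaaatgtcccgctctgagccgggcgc
The CCNE1 window held 7 GC boxes and was 81.2% G and C. The CDKN1A window held 4, with an overlap between the last 2, with 76.4% G and C. The CDKN2B window held 2, the CDKN2A window at the INK4a start 1 and the window at its upstream start 0, with 66.4%, 66.8% and 66.8% G and C. The median over all 35116 windows of the same length was 58.0%, and 42.6% of them held a GC box, against 9 of the 12 windows of these genes. A TATA box (TATAAA, held by 10.7% of all windows) and an E2F site (TTTCCCGC, TTTCGCGC, TTTGCCGC or TTTGGCGC, held by 2.79%), searched on both strands, were found in 0 of the 12 windows. An E-box (CACGTG, held by 6.34%) was found in 2, both of CDKN2C. These matches describe letters only.

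The values are TPM (transcript abundance per length, scaled to a common total), which sum to between 999999.2 and 1000001.0 per sample. Read depth is unknown, so precision rests on the samples alone. A TPM of at least 1 was found for 14389 to 17043 genes per sample. The hESC label held in the retaining lines, where the summed TPM of 5 hESC markers (POU5F1, NANOG, SOX2, LIN28A and DPPA4) was 3982 to 5082. In the PRC2-null samples it was 96.8 to 390.5, and all 5 markers fell (differences of -3.05 to -6.38 on the log2(TPM + 1) scale), so these cells went against the label. Of 12 meso-endoderm markers 10 rose, with a summed TPM of 98.0 to 211 in the retaining and 4581 to 31103 in the PRC2-null samples. HAND1, a heart and trophoblast factor, was listed at 0 in all 6 retaining samples. Several of the 12 markers, HAND1, GATA4 and FOXA2 among them, stayed under 1 TPM in all 6 retaining samples. They passed the filter on low values, given below, only through PRC2-null samples. A rise was thus favoured by their selection, and the count of 10 is a description. The part of this change of cell state in the results on the 10 genes was not tested, and in bulk samples fewer cells of a type and less RNA per cell cannot be told apart. EED transcripts were at 14.3 and 22.4 TPM in EED-/- H1 and at 17.3 and 22.0 TPM in WT H1 cells. Since a domain and not the gene was deleted, these values do not check the knockout. The study checked its knockout lines by genomic PCR and by qRT-PCR of the targeted genes.

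Between the PRC2-null and the retaining lines, 5 of the 10 genes rose: CDKN2A, CDKN2B, CDKN1A, CCND1 and CCND2. None fell at both limits, which were a limma p, adjusted by Benjamini-Hochberg, no higher than 0.01 and a change of at least 3-fold on the TPM + 1 scale. CCND3, CCNE1, CCNE2 and CDKN2C passed the adjusted p but not the 3-fold limit, so 9 of 10 had an unadjusted p under 0.05, beside 71.1% of all genes. CDKN1B passed neither. Of all 19100 genes tested, 13.5% were called higher and 5.09% lower. Median differences were 1.84 for the 10 genes and 0.29 for all genes on the log2(TPM + 1) scale. The 10 genes were chosen with earlier results of these data known, so counts and medians beside those of all genes are descriptions only. In 7 of the 10 genes the 6 PRC2-null and the 6 retaining samples did not overlap, which held for 37.5% of all genes. All 10 genes passed the filter on low values, 1 TPM or more in 2 or more of the 12 samples. CDKN2B and CDKN2C did so only through PRC2-null samples. Outside the 10, so did CDKN2B-AS1 and several meso-endoderm markers, HAND1, GATA4 and FOXA2 among them.

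**Figure D1:**
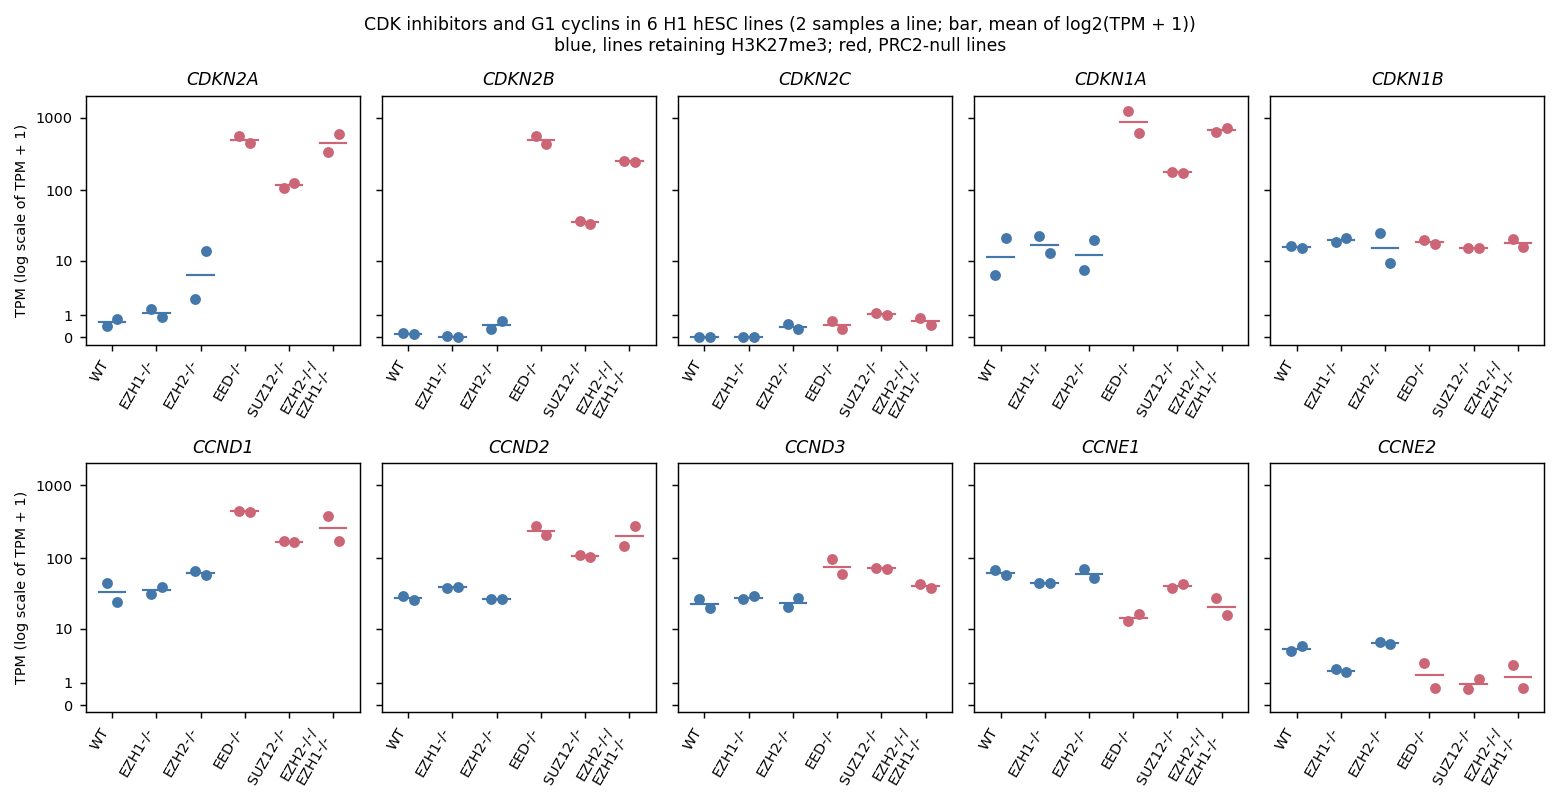
TPM of the 10 genes in the 12 samples of the 6 lines, on a log axis of TPM + 1; points are samples (2 a line), bars the mean of log2(TPM + 1), blue the retaining and red the PRC2-null lines. CDKN2A, CDKN2B, CDKN1A, CCND1, CCND2 and CCND3 lie higher and CCNE1 lower in all 6 PRC2-null samples, and CDKN1B is level at 9.31 to 25.6 TPM.

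CDKN2A was close to silent in WT H1 cells, at 0.44 and 0.77 TPM, and in EZH1-/- H1 cells, at 1.42 and 0.87 TPM. It was at 2.33 and 13.9 TPM in EZH2-/- H1 cells. It reached 563 and 445 TPM in EED-/- H1, 109 and 126 TPM in SUZ12-/- H1, and 335 and 586 TPM in EZH2-/-/EZH1-/- H1 cells. All 6 PRC2-null samples lay above all 6 retaining samples, and the nearest of these was the second EZH2-/- H1 sample. Means were 504 ± 83.4 TPM (SD, n = 2) in EED-/- H1, 460 ± 178 in EZH2-/-/EZH1-/- H1, 118 ± 11.8 in SUZ12-/- H1, 8.13 ± 8.20 in EZH2-/- H1, 1.15 ± 0.39 in EZH1-/- H1 and 0.61 ± 0.23 in WT H1 cells. In that order, the samples of the first 2 lines overlapped, and those of the other neighbouring lines did not. On the log2(TPM + 1) scale CDKN2A rose against WT H1 by 8.30 (SE 0.55) in EED-/- H1, 8.12 in EZH2-/-/EZH1-/- H1 and 6.21 in SUZ12-/- H1 cells, with limma adjusted p of 1.13e-06, 1.92e-06 and 7.74e-06. In EZH2-/- H1 cells the difference was 2.14 (SE 0.55), with both samples above both WT H1 samples. It had an unadjusted limma p of 0.00251 and did not pass the adjustment over all genes (adjusted p = 0.383).

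CDKN2B, whose product p15INK4b is known as a target of TGF-beta signalling, had still lower levels in the retaining lines. It was at 0.13 and 0.10 TPM in WT H1, 0.04 and 0.00 in EZH1-/- H1, and 0.29 and 0.66 in EZH2-/- H1 cells. In the PRC2-null lines it was at 562 and 428 TPM in EED-/- H1, 258 and 243 in EZH2-/-/EZH1-/- H1, and 38.3 and 34.1 in SUZ12-/- H1 cells. The 3 PRC2-null lines did not overlap in their samples, unlike those of CDKN2A. On the log2(TPM + 1) scale the rises against WT H1 were 8.78 in EED-/- H1, 7.82 in EZH2-/-/EZH1-/- H1 and 5.06 in SUZ12-/- H1 cells (SE 0.24 each, limma adjusted p of 6.25e-09, 1.72e-08 and 2.56e-07). Because the WT H1 values are near 0, the pseudocount of 1 makes these differences smaller than the ratios of TPM. The neighbouring CDKN2B-AS1 was at 0 to 0.20 TPM in the retaining samples. It was at 33.1 and 47.0 in EED-/- H1, 42.9 and 58.6 in EZH2-/-/EZH1-/- H1, and 3.84 and 2.77 in SUZ12-/- H1 cells. CDKN2B-AS1 rose by 4.29 between the PRC2-null and retaining lines (limma adjusted p = 6.73e-09). Both CDKN2B and CDKN2B-AS1 passed the filter on low values only through PRC2-null samples. A rise was thus favoured by their selection, and their p-values are given as a description.

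CDKN2C, which encodes p18INK4c, stayed low throughout. It was listed at 0 in both WT H1 and both EZH1-/- H1 samples and at 0.50 and 0.29 TPM in EZH2-/- H1 cells. Its highest values were 1.16 and 1.03 TPM in SUZ12-/- H1 cells, followed by 0.84 and 0.48 in EZH2-/-/EZH1-/- H1 and 0.67 and 0.28 in EED-/- H1 cells. The PRC2-null and retaining samples overlapped. The difference between them was 0.62 (SE 0.13, limma adjusted p = 0.00178) on the log2(TPM + 1) scale, and no fold is given against lines listed at 0. With a pseudocount of 0.1 the difference was 2.21 and passed both limits. CDKN2C passed the filter on low values only through the SUZ12-/- H1 samples. A rise was thus favoured by its selection, and both its p-value and this call are given as a description.

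CDKN1A encodes p21, a CIP/KIP inhibitor known for its induction by stress (chr6:36676460-36687337). It was expressed at 6.15 and 21.4 TPM in WT H1, 23.3 and 13.1 in EZH1-/- H1, and 7.39 and 20.0 in EZH2-/- H1 cells. It was at 1246 and 606 TPM in EED-/- H1, 179 and 175 in SUZ12-/- H1, and 631 and 716 in EZH2-/-/EZH1-/- H1 cells. Samples of the 3 retaining lines overlapped, and so did those of the double knockout and EED-/- H1 cells. On the log2(TPM + 1) scale CDKN1A rose against WT H1 by 6.10 in EED-/- H1, 5.73 in EZH2-/-/EZH1-/- H1 and 3.82 in SUZ12-/- H1 cells (SE 0.56 each, limma adjusted p of 8.94e-06, 2.05e-05 and 0.000254).

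CDKN1B encodes p27, which restrains CDK2 in resting cells (chr12:12685498-12722369). It lay between 15.5 and 21.2 TPM in the 6 PRC2-null samples and between 9.31 and 25.6 TPM in the 6 retaining samples. The groups overlapped. Its difference was 0.03 (SE 0.21, limma adjusted p = 0.903) on the log2(TPM + 1) scale, and its sign turned with the scaling (-0.12 with median-ratio scaling). Summed over both CIP/KIP genes, TPM was 22.8 to 42.1 in the retaining and 191 to 1267 in the PRC2-null samples.

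The D-type cyclins, which carry growth factor signals to CDK4 and CDK6, were all higher in the PRC2-null samples. CCND1 (chr11:69641156-69654474) was at 45.2 and 24.9 TPM in WT H1, 32.3 and 40.4 in EZH1-/- H1, and 67.0 and 57.8 in EZH2-/- H1 cells. It was at 448 and 436 TPM in EED-/- H1, 171 and 165 in SUZ12-/- H1, and 381 and 174 in EZH2-/-/EZH1-/- H1 cells. The lowest PRC2-null sample, of SUZ12-/- H1 cells, was above the highest retaining sample, of EZH2-/- H1 cells. On the log2(TPM + 1) scale CCND1 rose against WT H1 by 3.68, 2.29 and 2.90 in the EED-/-, SUZ12-/- and EZH2-/-/EZH1-/- lines (SE 0.35 each, limma adjusted p of 1.07e-05, 0.000314 and 7.68e-05).

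CCND2 (chr12:4269771-4305353) was at 26.2 to 40.4 TPM in the 6 retaining samples. It was at 277 and 208 TPM in EED-/- H1, 109 and 103 in SUZ12-/- H1, and 149 and 278 in EZH2-/-/EZH1-/- H1 cells. Again the PRC2-null and retaining samples did not overlap. The rises against WT H1 were 3.06, 1.89 and 2.82 on the log2(TPM + 1) scale (SE 0.26 each, limma adjusted p of 5.92e-06, 0.000182 and 1.56e-05).

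CCND3 (chr6:41934934-42050357) had the smallest differences of the 3. It was at 20.0 to 29.5 TPM in the retaining samples, with 96.2 and 59.6 in EED-/- H1, 73.4 and 71.0 in SUZ12-/- H1, and 43.9 and 38.5 in EZH2-/-/EZH1-/- H1 cells. The rises against WT H1 were 1.66 in EED-/- H1 and 1.59 in SUZ12-/- H1 cells (limma adjusted p of 0.000362 and 0.000522), just past the 3-fold limit, which is 1.58 on this scale. The value in EZH2-/-/EZH1-/- H1 cells was 0.79 (adjusted p = 0.029). The call in EED-/- H1 cells was lost at 1.45 without WT H1 replicate 2 and at 1.32 without EED-/- H1 replicate 1. The call in SUZ12-/- H1 cells was lost at 1.38 without WT H1 replicate 2 and, at an adjusted p of 0.00678, with 1.57 without SUZ12-/- H1 replicate 1. Both were lost with median-ratio scaling (1.39 and 1.55). Summed over the 3 D-type cyclins, TPM was 71.2 to 115 in the retaining and 339 to 822 in the PRC2-null samples.

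The E-type cyclins, which act later in G1, had the opposite sign. CCNE1 (chr19:29811991-29824312) was at 68.3 and 58.2 TPM in WT H1, 45.1 and 45.2 in EZH1-/- H1, and 70.7 and 53.4 in EZH2-/- H1 cells. It was at 13.2 and 16.3 TPM in EED-/- H1, 38.8 and 43.99 in SUZ12-/- H1, and 27.8 and 16.0 in EZH2-/-/EZH1-/- H1 cells. The groups did not overlap, but the highest SUZ12-/- H1 sample was close to the EZH1-/- H1 samples. On the log2(TPM + 1) scale CCNE1 fell in EED-/- H1 cells, with a difference of -2.03 from WT H1 (SE 0.26, limma adjusted p = 0.000104). The differences were -1.53 in EZH2-/-/EZH1-/- H1 (adjusted p = 0.000886) and -0.60 in SUZ12-/- H1 cells (adjusted p = 0.086), under the 3-fold limit. Without WT H1 replicate 2 or EZH2-/-/EZH1-/- H1 replicate 1 the double knockout passed it, at -1.65 and -1.91.

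CCNE2 was the lowest of the cyclins. It was at 4.50 and 5.33 TPM in WT H1, 2.06 and 1.84 in EZH1-/- H1, and 6.21 and 5.73 in EZH2-/- H1 cells. In the PRC2-null lines it was at 2.78 and 0.70 in EED-/- H1, 0.66 and 1.25 in SUZ12-/- H1, and 2.5 and 0.71 in EZH2-/-/EZH1-/- H1 cells. The PRC2-null samples overlapped with those of EZH1-/- H1 cells. On the log2(TPM + 1) scale CCNE2 fell by 1.61 in SUZ12-/- H1 cells (SE 0.42, limma adjusted p = 0.00916), a call lost without any of the 4 samples compared, at adjusted p of 0.0372 without WT H1 replicate 1, 0.0588 without WT H1 replicate 2, 0.074 without SUZ12-/- H1 replicate 1 and 0.0257 without SUZ12-/- H1 replicate 2. The differences in EED-/- H1 and EZH2-/-/EZH1-/- H1 cells were -1.22 and -1.27 (adjusted p of 0.032 and 0.0307). They passed both limits without the first sample of each line, at -1.80 and -1.79.

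Line by line, 6 of the 10 genes rose and 1 fell in EED-/- H1 cells, beside 16.2% and 6.09% of all genes. In SUZ12-/- H1 cells 6 rose and 1 fell, beside 14.5% and 5.21%. In EZH2-/-/EZH1-/- H1 cells 5 rose and none fell, beside 11.6% and 5.66%. In each of these 3 lines 9 of 10 had an unadjusted limma p under 0.05, beside 57.4%, 53.8% and 52% of all genes in that order. The genes that rose in all 3 lines were CDKN2A, CDKN2B, CDKN1A, CCND1 and CCND2. These comparisons share the WT H1 samples. In EZH1-/- H1 cells limma called none of the 10 genes, beside 0.0995% of all genes, and 1 (CCNE2, difference -1.001) had an unadjusted p under 0.05, beside 16% of all genes. In EZH2-/- H1 cells limma called none of the 10, beside 0% of all genes, and 2 (CDKN2A and CCND1, differences of 2.14 and 0.87) had an unadjusted p under 0.05, beside 5.81%.

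**Figure D2:**
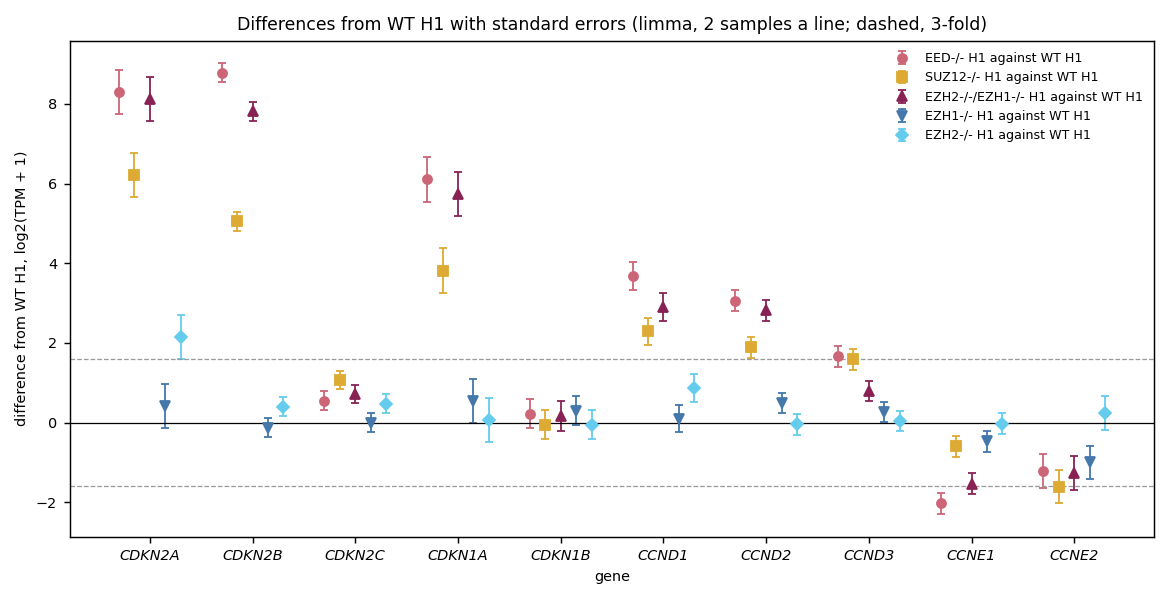
Difference of each knockout line from WT H1 in log2(TPM + 1) for the 10 genes, with limma standard errors as bars (2 samples a line); dashed lines mark the 3-fold limit. CDKN2A, CDKN2B and CDKN1A stand at 3.82 to 8.78 in the PRC2-null lines, with SUZ12-/- H1 the lowest of the 3 for each, and the values of EZH1-/- H1 and EZH2-/- H1 cells lie between -1.001 and 2.14.

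Whether the PRC2-null lines differed from one another was tested directly. CDKN2B was lower in SUZ12-/- H1 than in EED-/- H1 cells by 3.73 on the log2(TPM + 1) scale (SE 0.24, limma adjusted p = 6.71e-06). It was higher in EZH2-/-/EZH1-/- H1 than in SUZ12-/- H1 cells by 2.76 (SE 0.24, adjusted p = 3.41e-05), a call lost at an adjusted p of 0.0147 when only the 4 samples of these lines were fitted. Each of these comparisons called 1 of the 10 genes, beside 6.12% and 4.46% of all genes. An unadjusted p under 0.05 was found for 7 and 6 of the 10, beside 32.9% and 28.5% of all genes. Among the other members, differences of SUZ12-/- H1 from EED-/- H1 cells were -2.08 for CDKN2A, -2.29 for CDKN1A, -1.39 for CCND1 and -1.17 for CCND2 (limma adjusted p of 0.0223, 0.0157, 0.0172 and 0.0108). Those of CDKN2A and CDKN1A were past the 3-fold limit but not the limit on the adjusted p, and CDKN2A passed both when only the 4 samples of these lines were fitted. CCNE1 was higher in SUZ12-/- H1 cells by 1.44 (adjusted p = 0.00346), under the 3-fold limit and past it with median-ratio scaling, which also moved the calls over all genes from 676 higher and 493 lower to 830 and 338. Between EZH2-/-/EZH1-/- H1 and EED-/- H1 cells limma called none of the 10 genes, beside 0.089% of all genes, and 3 (CDKN2B, CCND1 and CCND3) had an unadjusted p under 0.05, beside 20.1%.

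After DOX withdrawal from H1-EED-/-/EED-OE cells the genes differed in when their levels departed from those with DOX. EED itself was at 108.5 TPM with DOX and at 12.6 to 31.6 TPM after its withdrawal. CDKN2A was at 1.10 TPM with DOX, 22.3 at day 8, 31.1 at day 12, 19.2 at day 16, 46.4 at day 20, 310.05 at day 24 and 518 at day 28. CDKN2B was listed at 0 with DOX and stayed between 0.35 and 1.28 TPM from day 8 to day 20. It was at 40.0 TPM at day 24 and 362 at day 28. Thus CDKN2A exceeded its level with DOX in all 6 samples after withdrawal, while CDKN2B was above 2 TPM only in the last 2. CDKN2B-AS1 was at 0 to 0.59 TPM up to day 20, and at 18.3 and 29.7 TPM at days 24 and 28. CDKN2C was listed at 0 with DOX, was highest at 2.79 TPM at day 20 and was back at 0.33 at day 28.

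CDKN1A was at 45.8 TPM with DOX and 30.4 at day 8, lay between 67.4 and 85.5 from day 12 to day 20, and was at 579 and 760 at days 24 and 28. CDKN1B lay between 17.5 and 29.7 TPM over all 7 samples. CCND1 was at 30.0 TPM with DOX and 61.7, 94.2, 111.1, 126.8, 371 and 197 at the 6 days in order. CCND2 was at 34.0 TPM with DOX, 43.6 to 63.7 from day 8 to day 20, and 118 and 111.1 at days 24 and 28. Both were above the DOX sample on every day, and CCND1 was highest at day 24.

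CCND3 was at 23.9 TPM with DOX, 15.2 to 19.1 up to day 20, 41.3 at day 24 and 24.7 at day 28. CCNE1 was at 65.9 TPM with DOX, 40.2 to 60.7 up to day 24 and 18.5 at day 28. CCNE2 was at 1.74 TPM with DOX and between 1.47 and 5.35 afterwards, with its lowest value at day 24. The hESC factor POU5F1 was at 2916 TPM with DOX, 1580 at day 20, 46.2 at day 24 and 33.6 at day 28, so the 2 days with its lowest values were those with the highest values of CDKN2A, CDKN2B and CDKN1A. The part of this change of cell state in the values was not tested.

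**Figure D3:**
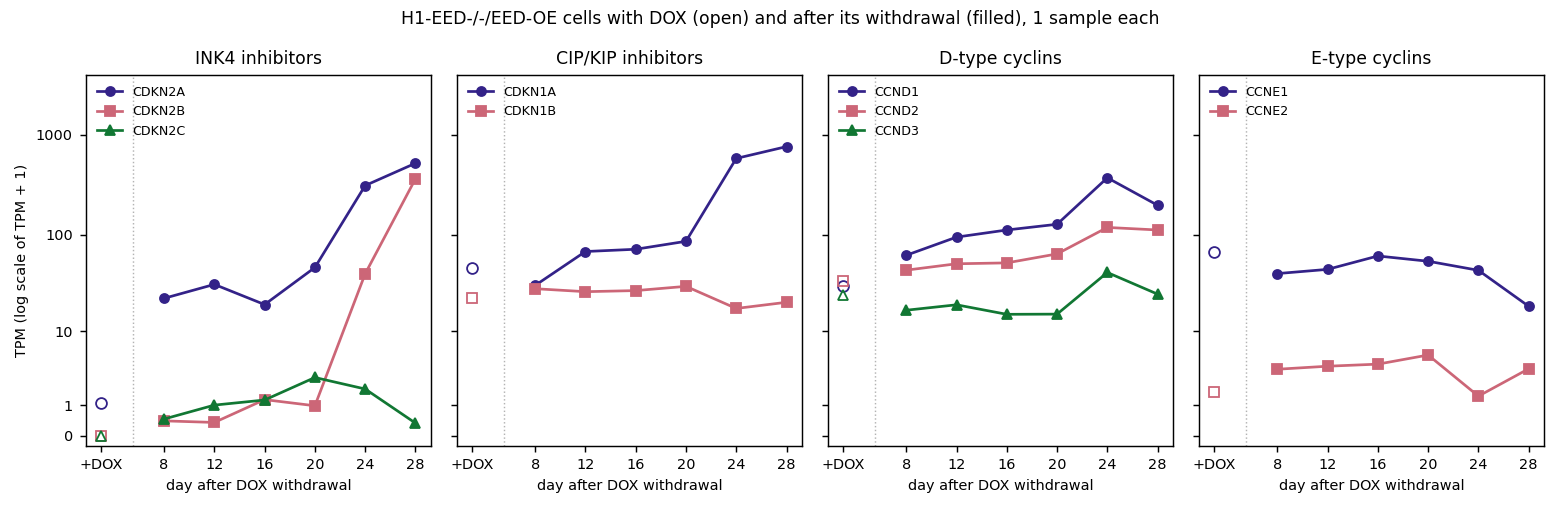
TPM of the 10 genes (log axis of TPM + 1) in H1-EED-/-/EED-OE cells with DOX (open symbols, left of the dotted line) and at days 8 to 28 after its withdrawal (filled symbols), 1 sample each. CDKN2A is already at 22.3 TPM at day 8, while CDKN2B stays at or under 1.28 TPM until day 20.

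With 1 sample a day there is no replicate check of single days. On the TPM + 1 scale 1 of the 10 genes (CDKN2A) was past 3-fold against the DOX sample at day 8, beside 3.54% of all 17245 genes kept. At day 20 these were 3 (CDKN2A, CCND1 and CDKN2C, the last against 0), beside 12.5%. At day 28 they were 6 (CDKN2A, CDKN2B, CDKN1A, CCND1 and CCND2 higher, CCNE1 lower), beside 24.9%. A line over the 6 days after withdrawal took the scatter around it as the error, and successive days may share a culture. By this fit 1 gene, CDKN1A, rose (fitted change of 4.64 from day 8 to day 28 on the log2(TPM + 1) scale, SE 0.68, limma adjusted p = 0.0099) and none fell, beside 1.35% and 0.661% of all genes. The call was lost at adjusted p of 0.0329, 0.0449, 0.0146, 0.028 and 0.0682 without day 8, 12, 16, 24 or 28, and without day 20 CDKN2B was called too. The fitted changes of CDKN2A (4.78), CDKN2B (7.81), CCND2 (1.51) and CCND1 (2.05) had adjusted p of 0.0183, 0.0218, 0.0196 and 0.0295. The median fitted change was 1.17 for the 10 genes and 0.14 for all genes.

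Other genes of the pathway were counted in lists between the PRC2-null and retaining lines, against the same 13.5% higher and 5.09% lower and the median difference of 0.29 of all genes. Of 29 further genes of the G1/S machinery 2 rose and 5 fell, with a median of -0.60. The rises were CDKN1C, the remaining CIP/KIP inhibitor (5.42 to 19.8 TPM in retaining, 59.4 to 577 in PRC2-null samples), and CDK6, a partner of the D-type cyclins (2.97 to 8.69 and 19.4 to 57.4 TPM). CDK4, at 151 to 245 and 127 to 197 TPM, had a difference of -0.23 (limma adjusted p = 0.127), so the summed TPM of CDK4 and CDK6 was 156 to 249 in retaining and 167 to 232 in PRC2-null samples. The largest falls were in E2F1, a factor under the control of the retinoblastoma protein, and in CCNA2, which drives S phase, each by 3.02 on the log2(TPM + 1) scale.

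Of 20 S and M phase genes 19 fell and none rose, with a median of -2.78 and a summed TPM of 2335 to 3446 in retaining and 485 to 719 in PRC2-null samples. The largest falls were in AURKB, a mitotic kinase, by 3.42, and in CDC6, which loads the replicative helicase, by 3.23.

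Of 9 TGF-beta and BMP response genes 6 rose and none fell, with a median of 1.75. TGFBI, an extracellular matrix gene named for its induction by TGF-beta, rose by 5.62. Of 11 genes at the INK4 locus or of its Polycomb regulators 4 rose and none fell, with a median of 0.45. These were led by CDKN2B-AS1 and by KDM6B, an H3K27 demethylase, which rose by 3.597 (0.66 to 1.71 TPM in retaining and 15.35 to 36.1 in PRC2-null samples). MTAP, the gene next to CDKN2A, was at 37.5 to 61.9 TPM in retaining and 16.2 to 38.9 in PRC2-null samples (difference -0.73, limma adjusted p = 0.00424). Over the days after withdrawal 0 of the 29 G1/S, 20 S and M phase, 11 INK4 and 9 TGF-beta and BMP genes were called in either direction by limma, beside 1.35% rising and 0.661% falling of all genes. Of the markers, GATA4 and FOXA2 rose among the 12 for meso-endoderm, and DPPA4 fell among the 5 for hESCs.

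**Figure D4:**
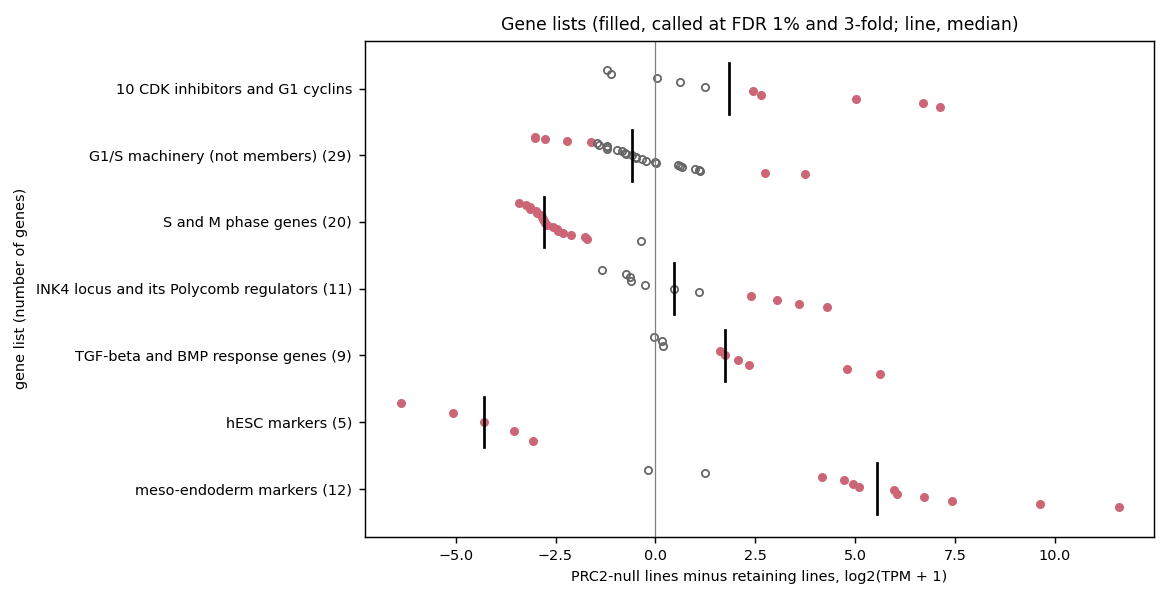
Difference between the 3 PRC2-null and the 3 retaining lines in log2(TPM + 1) for the 10 genes and 6 gene lists; each point is a gene, filled where called, and vertical lines are medians. The S and M phase genes lie left of 0 with a median of -2.78, the TGF-beta and BMP response genes mostly right of it with a median of 1.75, and the 10 genes fall on both sides.

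The genes whose pattern was most like that of the 3 members with the widest range were taken by Pearson's r of log2(TPM + 1) over all 19 samples, which share lines and fall into 2 classes, so r is given as a description. For CDKN2B these were RP11-597D13.9, KCNJ16 and FAM198B (r of 0.988, 0.988 and 0.986). For CDKN2A they were LAMB1, NKX3-2 and ELF4 (0.973, 0.970 and 0.967). For CDKN1A they were GDF15, a secreted stress factor, GDNF and SDF4 (0.984, 0.977 and 0.971).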

How the data were processed

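RNA-seq of H1 hESCs was taken as the authors deposited it: a table of TPM for 33382 genes in each of 19 samples. The authors made unstranded TruSeq libraries, used RSEM with Bowtie on human mRNA sequences of GRCh38. They describe a count model at an FDR of 1% and a fold of 3. As the deposited unit is TPM, limma 3.58.1 in R 4.3.3 was used with these limits on log2(TPM + 1), with a mean for each of the 6 lines (6 residual degrees of freedom), eBayes with trend and robust, and Benjamini-Hochberg adjustment over the 19100 genes that reached 1 TPM in 2 or more of 12 samples. The slope over 6 days (4 residual degrees of freedom, 17245 genes) left out the DOX sample, whose title also carries day 28. Folds on this scale understate changes of low genes, and depth is not known, so no interval that needs it is given. Replicate numbers follow accession order and pair nothing. Both fits were run on simulated data with independent noise for each sample. Such data cannot check the error where successive days share a culture or the samples of a line are technical. The 10 genes and the gene lists were chosen with earlier results of these data known, and from each list shown at most the 2 largest rises and falls called, hESC markers, targeted genes and genes that bear on a result are named. CDK4, HAND1, MTAP, GATA4 and FOXA2 were named after their values were seen. Some genes and 1 gene list are not reported here.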

Additional observations from a re-analysis of the deposited data

Results flagged for a closer look

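Among the 6 retaining samples, which hold 3 genotypes, CDKN2A in EZH2-/- H1 replicate 2 stood apart, at 13.93 TPM against 0.44 to 2.33 TPM in the other 5 samples. This was 1 of 20 groups of 6 samples tested by the gap to the nearest sample, and chance gives about 1 in 20. Without the EZH2-/- H1 line, a choice made after seeing the data, the same number of genes, 5, was called between the PRC2-null and the retaining lines.

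CDKN2B differed between PRC2-null lines by a direct test. It differed by -3.73 on the log2(TPM + 1) scale for SUZ12-/- H1 against EED-/- H1 and by 2.76 for EZH2-/-/EZH1-/- H1 against SUZ12-/- H1 cells. Both samples of SUZ12-/- H1 cells were at 34.1 to 38.3 TPM, under all 4 samples of the other PRC2-null lines. The antisense CDKN2B-AS1 was lowest in the same 2 samples, at 2.77 and 3.84 TPM, and its part was not tested.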

How the results depend on the processing

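Requiring 1 TPM in each of the 12 samples leaves out CDKN2A, CDKN2B, CDKN2C and CCNE2 by construction. It changed the number of genes called from 7 to 4 in SUZ12-/- H1, from 5 to 3 in EZH2-/-/EZH1-/- H1 and in the PRC2-null against retaining lines, and from 1 to 0 for SUZ12-/- H1 against EED-/- H1 and for EZH2-/-/EZH1-/- H1 against SUZ12-/- H1. At an FDR of 5% with no fold limit, 9 were called in EZH2-/-/EZH1-/- H1 and in the PRC2-null lines. At this setting 6 were called for SUZ12-/- H1 against EED-/- H1, 5 for EZH2-/-/EZH1-/- H1 against SUZ12-/- H1 and 5 for the slope. The shares of all genes at this setting are not given, so these counts say little about the 10 genes. In the 4 comparisons of lines, in that order, 52%, 71.1%, 32.9% and 28.5% of all genes had an unadjusted limma p under 0.05. Median-ratio scaling gave 2 for SUZ12-/- H1 against EED-/- H1, and moved the median of all genes by -0.21 in EED-/- H1 and -0.13 in the PRC2-null lines. Only the samples compared gave 2 for SUZ12-/- H1 against EED-/- H1 and 0 for EZH2-/-/EZH1-/- H1 against SUZ12-/- H1. The slope count of 1 became 0 without a filter, 2 with the DOX sample as day 0, 0 for late against early days, and 0 to 2 without each day in turn. Beyond the genes left out by construction, the cause was not tested.

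Signs turned for small values. The difference of CDKN1B was -0.038 in EED-/- H1 and -0.12 in the PRC2-null lines with median-ratio scaling, and -0.037 in the PRC2-null lines without the EZH2-/- H1 line, an alternative chosen after seeing the data. Leaving out each sample in turn, it ran from -0.033 (without EZH2-/-/EZH1-/- H1 replicate 1) to 0.37 in EZH2-/-/EZH1-/- H1 and from -0.20 (without EZH2-/- H1 replicate 2) to 0.26 in the PRC2-null lines. The fitted slope change of CCNE2 was 0.21 with the DOX sample as day 0. Without each day in turn it ran from -0.71 to 0.090 (without day 24), that of CDKN2C from -0.41 (without day 8) to 1.45 and that of CCNE1 from -1.46 to 0.24 (without day 28). CCND1 in EZH2-/-/EZH1-/- H1 cells was not called when only its 4 samples were fitted (adjusted p = 0.011). With the replicate block, 7, 7, 5 and 5 genes were called in EED-/- H1, SUZ12-/- H1, EZH2-/-/EZH1-/- H1 and the PRC2-null lines, and the block changed no call in any comparison of lines. Samples with the same number did not deviate together (mean correlation -0.003, range -0.12 to 0.22 over 15 pairs of lines).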

Other observations

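BMI1, a PRC1 component known for repressing CDKN2A, was singled out after its values were seen. It was at 2.12 to 3.06 TPM in the WT H1 and EZH1-/- H1 samples, at 34.1 and 10.6 TPM in EZH2-/- H1 and at 24.7 to 71.0 TPM in the PRC2-null samples. In H1-EED-/-/EED-OE cells it was at 3.14 TPM with DOX and at 36.9 to 43.7 TPM on all 6 days after withdrawal, while CDKN2A was at 1.10 TPM with DOX and 19.2 to 518 TPM afterwards. Between the PRC2-null and retaining lines BMI1 rose by 3.05 on the log2(TPM + 1) scale (limma adjusted p = 1.72e-06). This p leaves out the spread between lines, and the EZH2-/- H1 sample at 34.1 TPM lay above the lowest PRC2-null sample, at 24.7 TPM.

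CDKN1C had its highest values, 577 and 556 TPM, in SUZ12-/- H1 cells, the PRC2-null line in which CDKN2A, CDKN2B and CDKN1A were lowest. It was at 59.4 and 69.5 TPM in EED-/- H1 and at 134 and 111.7 TPM in EZH2-/-/EZH1-/- H1 cells. This order was not tested.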
